A study of Mus musculus with 2 samples.

Results

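The 10 transcription factors described here act in the lining of bladder and ureter, and were measured in embryonic mouse ureters: Pparg, Grhl3, Elf3, Klf5, Gata3, Trp63, Grhl1, Grhl2, Ovol1 and Ehf. They were found as the non-control probes whose RefSeq transcript, symbol or older alias is that of one of these genes. This gave 13 probes for the 10 genes, out of 39429 probes and 21978 genes tested. All 13 probes were well above background in all 4 RNAs, so no member was lost to the filter on dim probes.

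The study asked which transcripts differ in the ureter when the gene for the secreted signal Bmp4 is deleted in the cells in which Tbx18 has been active. Ureters were dissected mechanically from NMRI embryos at stage E14.5. The group named Bmp4cKO is labelled Tbx18(cre/+);Bmp4(fl/fl) and the control group Tbx18(+/+);Bmp4(fl/?), so the groups also differ in 1 Tbx18 allele, and the second Bmp4 allele of the controls is not given. Each of 2 two-colour arrays held 1 RNA of each group. Replicate 1, labelled female, had its control RNA in red (AlexaFluor647) and its Bmp4cKO RNA in green (AlexaFluor555), and replicate 2, labelled male, had these dyes exchanged. The sources used here do not give the number of embryos per RNA, so the p-values measure only the spread between these 2 arrays. In the ureter Tbx18 is a gene of the mesenchyme around the epithelial tube, whereas most of the factors described here are known as epithelial genes.

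The mature urothelium is a layered epithelium with basal cells at its base and intermediate cells above them. Large superficial cells, also called umbrella cells, face the urine. Whether these layers were present in the ureters at E14.5 was not tested, so the layers named below are those of the mature tissue. Trp63 encodes p63, the p53 relative that marks basal cells of stratified epithelia. Klf5 and Gata3 encode zinc-finger factors found in several urothelial layers. Pparg, a nuclear receptor that binds DNA with a retinoid X receptor, Grhl3, a grainyhead factor, and Elf3, an epithelial ETS factor, are known for their part in the differentiation of superficial cells, which make the uroplakin plaques of the urinary barrier. Grhl1, Grhl2, Ovol1 and Ehf act in many epithelia and were assigned to no layer.

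The probes on which the results turn are shown by the first 30 of their 60 bases, 5′ to 3′, as the array files give them. Those of Trp63 are shown because probes for the same gene gave different ratios. They are numbered in their order along the gene, and probes 1 and 2 carry an Ensembl transcript name in place of a gene symbol. Capitals mark the run CAGCAGCAG.
Pparg: gcaggaaagtcccacccgctgacaacgtgt
Grhl3: ggaacaaatacccttgccacctactgttgt
Klf5: aaagtcgtctcacttaaaagctcacctgag
Trp63, probe 1: acttaccatgtgtcctggctatagcttttc
Trp63, probe 2: cagtcccatataccatgcacttaactcttt
Trp63, probe 3: acacgatcgaaacgtacaggCAGCAGCAGc
Trp63, probe 4: caaaaggtactttcttatagacatgatact

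Levels are given as log2 of the normalized intensity, which serves to compare RNAs at 1 probe and not to compare probes. Differences are log2 ratios, Bmp4cKO over control by the labels, with the SD over 2 arrays. Median signal over local background was 15.1 and 15.8 in the green channel and 7.18 and 7.58 in the red channel of replicates 1 and 2. The number of arrays limits the precision: each gene had 1 residual degree of freedom, to which limma's shared prior added 4.03.

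The deleted gene did not follow its label. At its measured probe (mm9 chr14:47003391-47003450, minus strand), Bmp4 stood at 16.21 and 15.92 in the RNAs labelled Bmp4cKO and at 13.17 and 12.20 in those labelled control. Both arrays thus put it higher in that RNA, by a log2 ratio of 3.38 ± 0.48 (SD, n = 2 arrays), a 10.4-fold difference with a limma adjusted p of 0.0162. The sources used here do not say whether this probe lies in the deleted stretch, so it may not read the deletion itself. Why its signal was higher in the RNA labelled Bmp4cKO was not tested. The second Bmp4 probe was not well above background. Tbx18 was also higher, by 0.97 ± 0.17 (SD, n = 2 arrays), with an adjusted p of 0.0398 in limma. By the dye labels, the signed folds in the authors' value table run as control over Bmp4cKO on each array, the opposite of the direction used here. All directions below follow the dye labels and are the direction in which Bmp4 was higher. They would turn if the labels were exchanged. The sex labels of replicate 2 also did not match for at least 1 RNA, since Ddx3y, a Y-linked gene, was well above background in the control RNA of that array only, and Xist stood at 11.88 in the RNA labelled Bmp4cKO and at 7.86 in the control RNA. On replicate 2 the ratio between groups is thus also a ratio between an RNA with high Xist and one with Y-linked signal, and group and sex cannot be told apart there. On replicate 1 Xist stood at 12.35 and 12.49, and neither RNA had a Ddx3y signal well above background.

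Pparg was the one member that passed the adjusted threshold at the probe used for its gene, and it stood with Grhl3 at the top of the group. The mean log2 ratio was above 0 for all 10 members, and for 8 of them it was above 0 on both arrays, against 28.2% of all genes tested. One member was called higher at a limma adjusted p under 0.05, against 0.887% of genes, and no member was called lower, against 1.02%, or 1.91% in either direction. At an unadjusted p under 0.05, 7 members were higher, against 7.15% of genes, and 0 were lower, against 7.37%. At least a 2-fold higher level on both arrays was seen for 2 members, Pparg and Grhl3, against 0.578% of genes. The median of the members was 0.49 (0.41 on replicate 1 and 0.59 on replicate 2), beside -0.0092 over all genes tested. In RNA of whole ureters, more cells of a type and more RNA per cell cannot be told apart. In 6 members both RNAs labelled Bmp4cKO lay above both labelled control, against 18.8% of genes. Grhl1 is among these 6 and among the 8 above 0 on both arrays, with a log2 ratio of only 0.00055 on replicate 1.

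**Figure D1:**
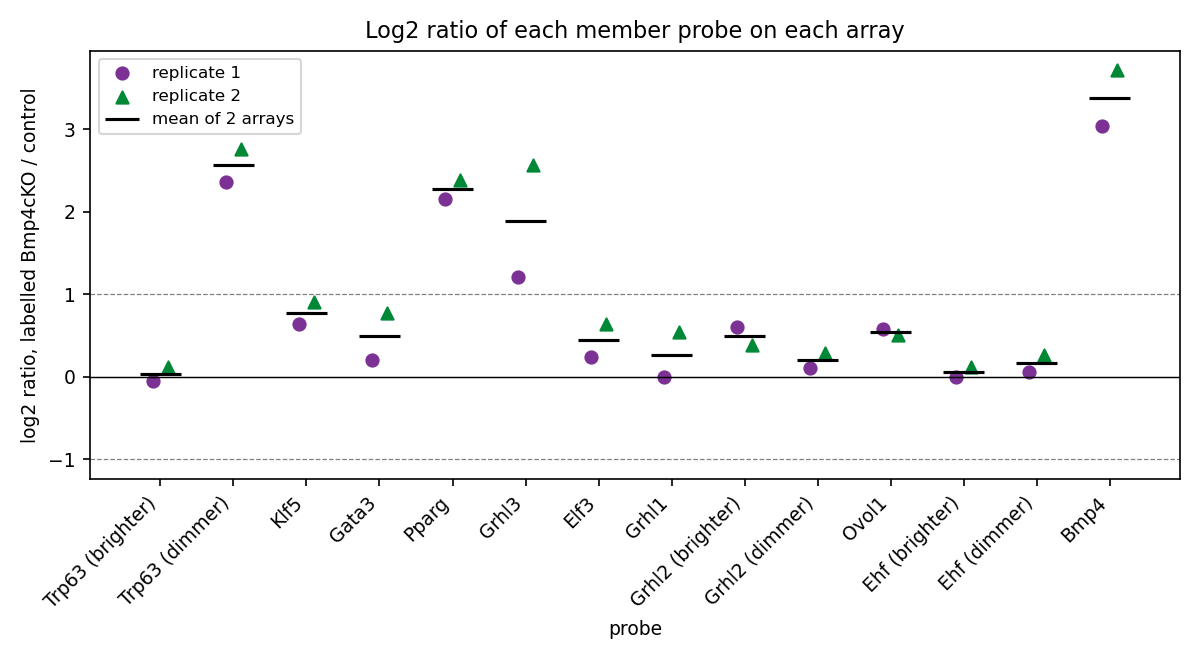
Log2 ratio, labelled Bmp4cKO over labelled control, of each member probe and of Bmp4 on replicate 1 (circles) and replicate 2 (triangles), with black bars for the mean of 2 arrays and dashed lines at a 2-fold difference. Pparg, Grhl3, the dimmer Trp63 probe and Bmp4 lie above the upper dashed line on both arrays, and no probe lies below the lower one.

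Among the factors of superficial cells, Pparg was called higher. Its level was 13.13 and 13.02 in the RNAs labelled Bmp4cKO and 10.97 and 10.63 in those labelled control, on replicates 1 and 2. Both RNAs labelled Bmp4cKO were high, both controls were low, and the groups did not overlap. The log2 ratios of 2.16 and 2.38 had a mean of 2.27 ± 0.16 (SD, n = 2 arrays), a 4.83-fold difference (limma SE 0.13, adjusted p = 0.0162). Its 95% interval ran from 1.95 to 2.59. All 95% intervals given here come from a separate fit of every passing probe, and not from the fit with 1 probe per gene. The probe (mm9 chr6:115440213-115440272, plus strand) is listed for 2 RefSeq transcripts, so it does not tell these transcripts apart. It was printed 10 times on each array, and the log2 ratio over those spots ran from 2.07 to 2.20 on replicate 1 and from 2.28 to 2.45 on replicate 2. These spots share 1 pair of RNAs per array and show only that the printing error, an SD of 0.0376 and 0.0582, was smaller than the gap between the arrays. The call was lost when the arrays were only centred on their medians (adjusted p = 0.296) or not normalized at all (adjusted p = 1.00), with a mean log2 ratio of 2.29 and 2.27.

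Grhl3 was also higher on both arrays, but less evenly. The grainyhead factor stood at 11.83 and 12.94 in the RNAs labelled Bmp4cKO and at 10.62 and 10.37 in those labelled control, at its probe on the minus strand of mm9 chr4:135097991-135098050. The groups did not overlap, and the RNA labelled Bmp4cKO of replicate 2 was the highest of the 4. The log2 ratios of 1.21 and 2.57 had a mean of 1.89 ± 0.96 (SD, n = 2 arrays) or 3.71-fold. It did not pass the threshold (limma adjusted p = 0.0675), and its 95% interval ran from 1.07 to 2.71. In 3 of 14 alternative settings it passed. The log2 ratio was 1.35 higher on replicate 2 than on replicate 1.

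Elf3, the ETS factor, showed a smaller difference. Its level was 10.15 and 11.07 in the RNAs labelled Bmp4cKO and 9.91 and 10.43 in those labelled control (mm9 chr1:137150328-137150387, minus strand). The RNA labelled Bmp4cKO was the higher one on each array, but across arrays the groups overlapped. The log2 ratio was 0.44 ± 0.28 (SD, n = 2 arrays), which did not pass (limma adjusted p = 0.265).

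**Figure D2:**
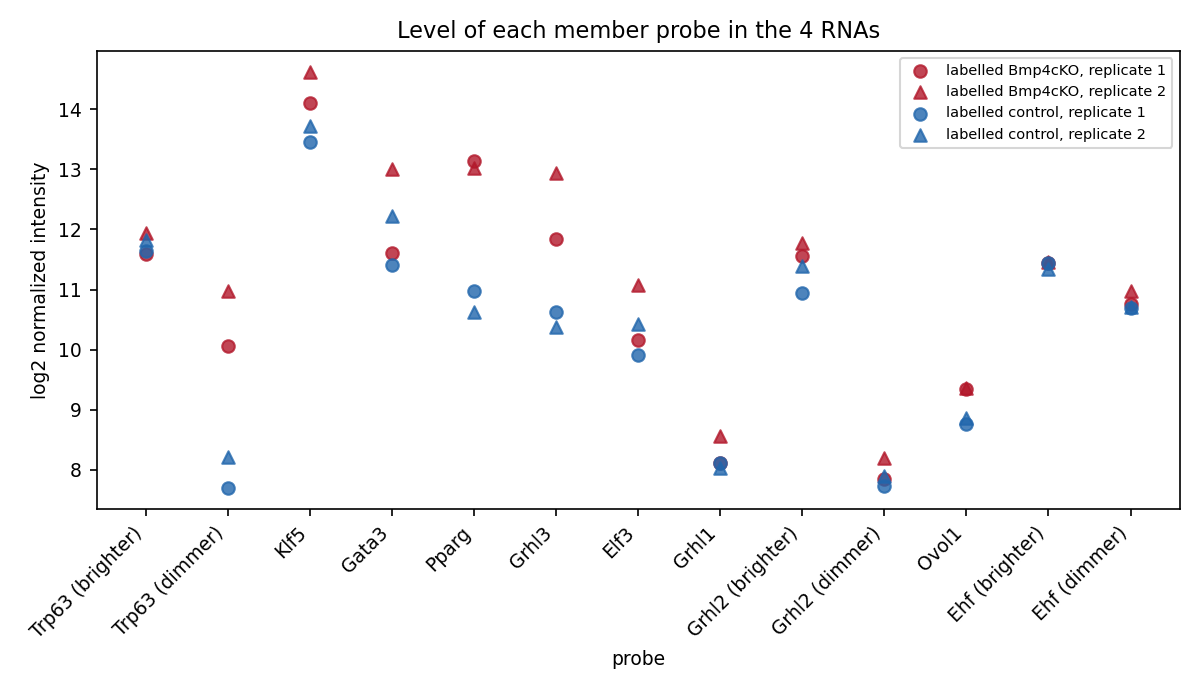
Log2 normalized intensity of each member probe in the 4 RNAs, with RNAs labelled Bmp4cKO in red and those labelled control in blue, circles for replicate 1 and triangles for replicate 2. Red lies clear of blue at Pparg, Grhl3, Klf5 and the dimmer Trp63 probe, while colours mix at Elf3, Gata3 and the brighter Trp63 probe.

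Klf5 and Gata3, the zinc-finger factors of several layers, each had a log2 ratio above 0 on both arrays without passing the threshold. Klf5 stood at 14.10 and 14.62 in the RNAs labelled Bmp4cKO and at 13.45 and 13.72 in those labelled control. The groups did not overlap, and the log2 ratio of 0.64 and 0.91 gave a mean of 0.78 ± 0.19 (SD, n = 2 arrays), or 1.71-fold (limma adjusted p = 0.0644). It passed in 2 of 14 alternative settings. The Klf5 probe is placed on mm9 chr14:99702656-99712388, plus strand, so its 60 bases span 9733 bases of genome. Gata3 stood at 11.61 and 13.00 in the RNAs labelled Bmp4cKO and at 11.41 and 12.22 in those labelled control (mm9 chr2:9779551-9779610, minus strand). Here both RNAs of replicate 2 were higher than both of replicate 1, so the groups overlapped. The log2 ratios of 0.20 and 0.78 averaged 0.49 ± 0.40 (SD, n = 2 arrays), which did not pass (limma adjusted p = 0.294).

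Trp63, the factor of basal cells, gave an answer that depended on the probe. The array names 2 probes after it, and the gene was represented by the brighter, as for every gene. At this probe, probe 3 (mm9 chr16:25871159-25871218), the level was 11.60 and 11.95 in the RNAs labelled Bmp4cKO and 11.65 and 11.82 in those labelled control. The groups overlapped, the log2 ratio of -0.05 and 0.12 averaged 0.04 ± 0.12 (SD, n = 2 arrays; limma adjusted p = 0.953), and the 95% interval of -0.27 to 0.35 holds no 2-fold difference. At the dimmer probe, probe 4 (mm9 chr16:25892012-25892071), the level was 10.06 and 10.98 in the RNAs labelled Bmp4cKO and 7.70 and 8.22 in those labelled control. Both RNAs labelled Bmp4cKO were high there and both controls low. The log2 ratio of 2.36 and 2.76 had a mean of 2.56 ± 0.29 (SD, n = 2 arrays), a 5.90-fold difference. When every passing probe was tested on its own, this one had a limma adjusted p of 0.0166, and 2 of the 13 member probes were called higher, those of Pparg and this one, against 0.835% of 27677 probes. That test was chosen after the values were seen. The call was lost with median centring only (adjusted p = 0.282) or without normalization (adjusted p = 1.00) and was kept in 7 of 9 alternatives for this probe.

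A search of the probe descriptions, made after these values were seen, found another pair of probes described as the gene for p63 but named by an Ensembl transcript. Probe 1 (ENSMUST00000115307, mm9 chr16:25821344-25821403) stood at 10.88 and 10.79 in the RNAs labelled Bmp4cKO and at 8.76 and 8.74 in those labelled control. Its log2 ratio was 2.12 and 2.05, a mean of 2.08 ± 0.05 (SD, n = 2 arrays) or 4.24-fold (limma adjusted p = 0.0162), again with no overlap. Probe 2 (ENSMUST00000115304, mm9 chr16:25867718-25867777) was well above background only in the RNAs labelled Bmp4cKO, at 8.29 and 7.88. With the control RNAs at 7.08 and 7.06, not well above background, it was at least 2.02-fold higher on the mean of both arrays (limma adjusted p = 0.0473). Probe 2 passed the filter only through the RNAs in which it was higher, so its p is no support of its own. This bound sets the mean of the RNAs labelled Bmp4cKO against the control values, which exceeded the lowest signal well above background on each array. It holds for the main setting only. The log2 ratio of probe 2 was 1.21 on replicate 1 and 0.82 on replicate 2, and its mean ran from 0.97 to 1.94 over the alternatives. Probe 1 kept its call in 12 of 14 alternatives and probe 2 in 9 of 13, and neither changed sign. Thus probes 1 and 4, measured in all 4 RNAs, were higher in the RNA labelled Bmp4cKO, and the brightest of those named Trp63 was not. Probe 2 was higher as well, but it was kept only through that RNA.

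The probes differ in what they read. Probe 3 is described as transcript variant 3 and listed for 3 RefSeq transcripts, probe 4 as variant 4 and listed for 4, and the lists share 0 transcripts. Trp63 is known to make several transcripts from different starts and with different ends, but the sources used here do not say which end each probe reads. Probes 3 and 4 start 20853 bases apart, and their longest shared run of bases is 6. The run CAGCAGCAG, shown in capitals in probe 3, occurs on either strand of 74 of 39429 probes, or 0.188%. That probe shares a run of 20 bases with a probe for Crebbp, a histone acetyltransferase gene, and probe 4 shares at most 14 bases with a probe of another gene, Ugp2. Whether these shared runs have a part in the difference between the probes was not tested.

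Among 4733 genes with at least 2 passing probes, the range between the highest and the lowest mean log2 ratio of a gene's probes had a median of 0.11 and a 95th percentile of 0.44. The range of Trp63 was 2.52 (2.41 on replicate 1 and 2.64 on replicate 2), and no other gene reached it. Sprr2a2 and Ramp1 came next, at 1.94 and 1.92.

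**Figure D3:**
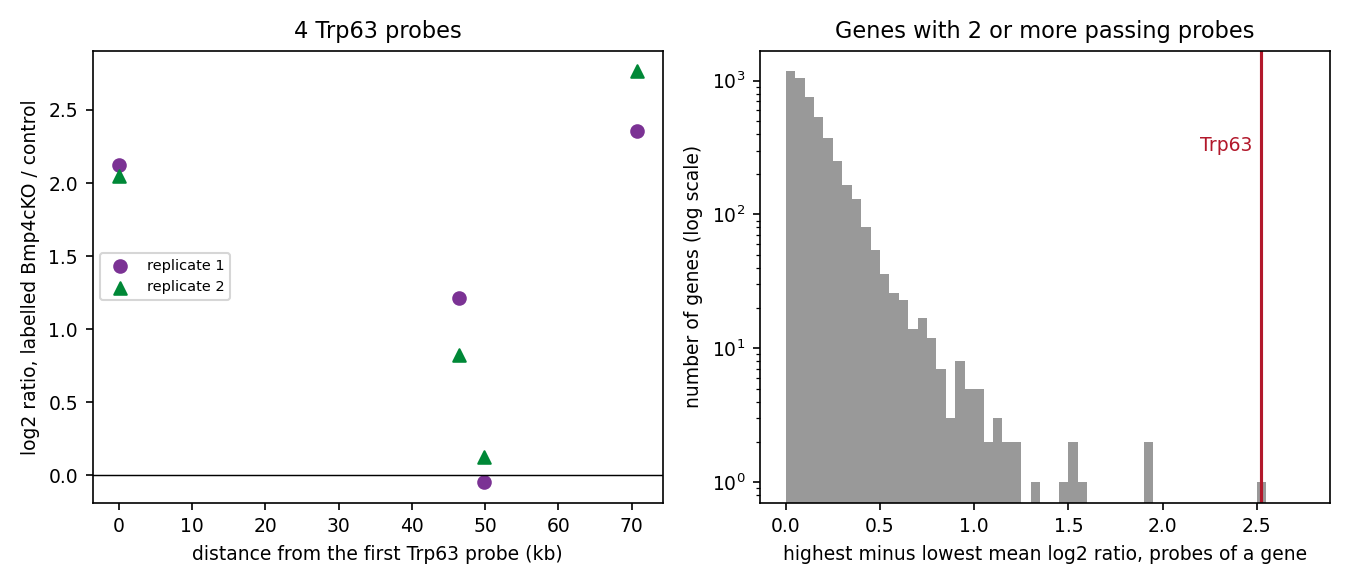
Left, log2 ratio of the 4 Trp63 probes on replicate 1 (circles) and replicate 2 (triangles) against the distance of each probe from the first in kilobases; right, number of genes (log axis) by the range of mean log2 ratios over their passing probes, with a red line at Trp63. Probe 3 lies near 0 on both arrays while the others lie above it, and the range of 2.52 for Trp63 is the largest of 4733 genes.

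Of the 4 factors shared by many epithelia, limma called 0 at the adjusted threshold, against 1.91% of genes. At an unadjusted p under 0.05 in limma, 2 were higher, against 7.15% of genes. Ovol1, a zinc-finger repressor that keeps epithelial cells from taking on mesenchymal features, stood at 9.35 and 9.37 in the RNAs labelled Bmp4cKO and at 8.76 and 8.86 in those labelled control (mm9 chr19:5549209-5549268, minus strand). The groups did not overlap, and the log2 ratio of 0.58 and 0.51 was the most even of all members, at 0.54 ± 0.05 (SD, n = 2 arrays; limma adjusted p = 0.113). Grhl2, a grainyhead factor that activates epithelial junction genes such as Cdh1, stood at 11.55 and 11.78 against 10.95 and 11.40 at its brighter probe (mm9 chr15:37293139-37293198). The groups did not overlap there, and the log2 ratio was 0.49 ± 0.16 (SD, n = 2 arrays; limma adjusted p = 0.161). At the dimmer Grhl2 probe (mm9 chr15:37239426-37239485) it was 0.20 ± 0.13 (SD, n = 2 arrays).

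Grhl1, the grainyhead factor known for its targets in the desmosomes of skin, stood at 8.11 and 8.57 in the RNAs labelled Bmp4cKO and at 8.11 and 8.03 in those labelled control (mm9 chr12:25302095-25302154). The RNAs of replicate 1 lay together, and those of replicate 2 lay 0.54 apart. The mean of 0.27 ± 0.38 (SD, n = 2 arrays) did not pass (limma adjusted p = 0.579). Ehf, an ETS factor of the same family as Elf3, stood at 11.44 and 11.46 against 11.44 and 11.35 at its brighter probe (mm9 chr2:103114043-103114102, minus strand). All 4 RNAs lay within a narrow band, and the log2 ratio was 0.06 ± 0.08 (SD, n = 2 arrays; limma adjusted p = 0.909; 95% interval -0.25 to 0.36). Its dimmer probe (mm9 chr2:103106827-103106886) gave 0.16 ± 0.15 (SD, n = 2 arrays). For these 4 factors, a p that misses the threshold does not show that the groups were equal.

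By role, the median log2 ratio was 1.89 for the 3 factors of superficial cells and 0.63 for the 2 factors of several layers. It was 0.38 for the 4 epithelial factors, and for Trp63 it was 0.04 or 2.56 by probe. These medians rest on 1 to 4 genes and were not tested against one another. All 10 members kept a mean log2 ratio above 0 in all 14 alternative settings that use both arrays. On replicate 1 alone, Trp63 at its brighter probe and Ehf lay just below 0.

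**Figure D4:**
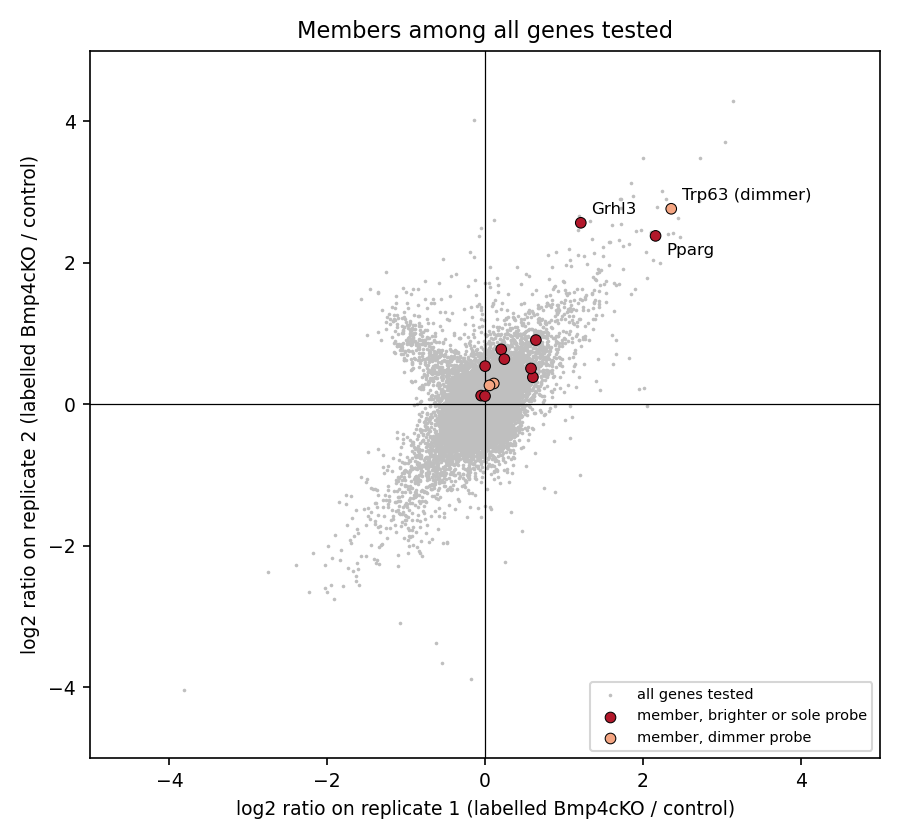
Log2 ratio on replicate 2 against replicate 1 for all 21978 genes tested (grey) with the member probes in red (brighter or sole probe) and orange (dimmer probe). Pparg, Grhl3 and the dimmer Trp63 probe lie far in the upper right, away from the grey mass, and the other members lie within it, most of them above 0 on both arrays.

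Genes that work with or under these factors were read from lists of known partners and targets. For every list below, the shares over all genes tested were 0.887% called higher and 1.02% called lower. At an unadjusted p under 0.05 in limma they were 7.15% and 7.37%. Of 14 partners and co-regulators of Pparg, limma called 0 in either direction (0 higher and 1 lower at an unadjusted p under 0.05), and 10 of 14 were lower on both arrays, against 30.6% of genes, with a median of -0.10. Ncoa3, a co-activator, did not pass (limma adjusted p = 0.503), with a log2 ratio of -0.23 ± 0.12 (SD, n = 2 arrays). The retinoid X receptors that pair with Pparg lay between -0.22 (Rxrb) and 0.14 (Rxra).

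Of 14 known targets of PPAR receptors, 13 were tested, 1 rose and 0 fell. Their median was 0.23, and 8 were higher on both arrays, against 28.2% of genes. Pdk4, a kinase that restrains pyruvate dehydrogenase, gave 0.95 without passing (limma adjusted p = 0.0975), and Fabp4, the fatty acid binding protein of fat cells, gave 0.20. Adipoq, the fat cell hormone, was not well above background in both RNAs of either group and was not tested.

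Of 15 known targets of p63, 14 were tested, 1 rose and 1 fell, and the median was 0.51. At an unadjusted p under 0.05 in limma, 9 were higher and 2 lower, against 7.15% and 7.37% of genes. Perp, a desmosomal protein of stratified epithelia, stood at 13.60 and 13.89 in the RNAs labelled Bmp4cKO and 11.31 and 10.99 in those labelled control (log2 ratio 2.60 ± 0.43, SD, n = 2 arrays; limma adjusted p = 0.0187). Cldn1, a tight junction protein, fell, at 8.39 and 8.38 against 9.76 and 9.83 (log2 ratio -1.41 ± 0.06, SD, n = 2 arrays; limma adjusted p = 0.0205). The basal keratins Krt5 and Krt14 gave 0.06 and 0.01. Their levels were low, between 8.21 and 8.77, where the lowest signal well above background was 6.77 to 7.10 by RNA. Another keratin of the list, Krt15, gave 1.17 ± 1.09 (SD, n = 2 arrays) without passing (limma adjusted p = 0.239).

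Of 14 known targets of grainyhead factors, 13 were tested and limma called 0 (5 higher and 0 lower at an unadjusted p under 0.05). Higher on both arrays were 10 of them, against 28.2% of genes, and their median was 0.27. Spint1, a protease inhibitor of epithelial surfaces, gave 0.66 ± 0.14 (SD, n = 2 arrays; limma adjusted p = 0.0817). Dsc2, a desmosomal cadherin, gave 0.61 ± 0.03 (SD, n = 2 arrays; limma adjusted p = 0.0837). Cdh1, which encodes E-cadherin, gave 0.56 ± 0.10 (SD, n = 2 arrays; limma adjusted p = 0.109).

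Few relatives of the members were called. Of 21 genes of the GATA, KLF, p53, ELF and CP2 families, 1 rose, Gata6, a GATA factor also known from smooth muscle, at 1.09 ± 0.20 (SD, n = 2 arrays; limma adjusted p = 0.0351); the median was 0.10. Of 21 tested among 22 other epithelial factors, Foxa1, a forkhead factor that acts with Pparg in urothelial cells, rose by 1.20 ± 0.34 (SD, n = 2 arrays; limma adjusted p = 0.0398). Lhx1, a homeobox gene of the nephric duct and kidney, fell, at -1.06 ± 0.17 (SD, n = 2 arrays; limma adjusted p = 0.0351). The median of that list, -0.05, turned to 0.01 when the probes of a gene were averaged. Of 6 repressors of epithelial genes, whose role opposes that of Ovol1 and Grhl2, 1 rose, Snai1, at 1.18 ± 0.26 (SD, n = 2 arrays; limma adjusted p = 0.0351), and the median was 0.35.

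Many markers of superficial urothelial cells rose. Of 11 genes of superficial cells, 10 were tested and 7 rose, against 0.887% of genes, with a median of 1.83. All 10 were higher on both arrays, against 28.2% of genes. Upk1b, a uroplakin, stood at 12.59 and 13.03 in the RNAs labelled Bmp4cKO and 9.45 and 8.74 in those labelled control (log2 ratio 3.72 ± 0.82, SD, n = 2 arrays; limma adjusted p = 0.0198). Rab27b, which moves uroplakin vesicles, gave 2.79 ± 0.12 (SD, n = 2 arrays; limma adjusted p = 0.0162), Upk3a 2.48 ± 0.42 and Upk2 2.41 ± 0.76 (SD, n = 2 arrays). Of 11 genes of basal cells limma called 0 (5 higher and 2 lower at an unadjusted p under 0.05), with a median of 0.21. Lamb3, a chain of the basement membrane laminin, gave 1.40 ± 0.77 (SD, n = 2 arrays; limma adjusted p = 0.0888), and Krt15 did not pass either (limma adjusted p = 0.239).

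**Figure D5:**
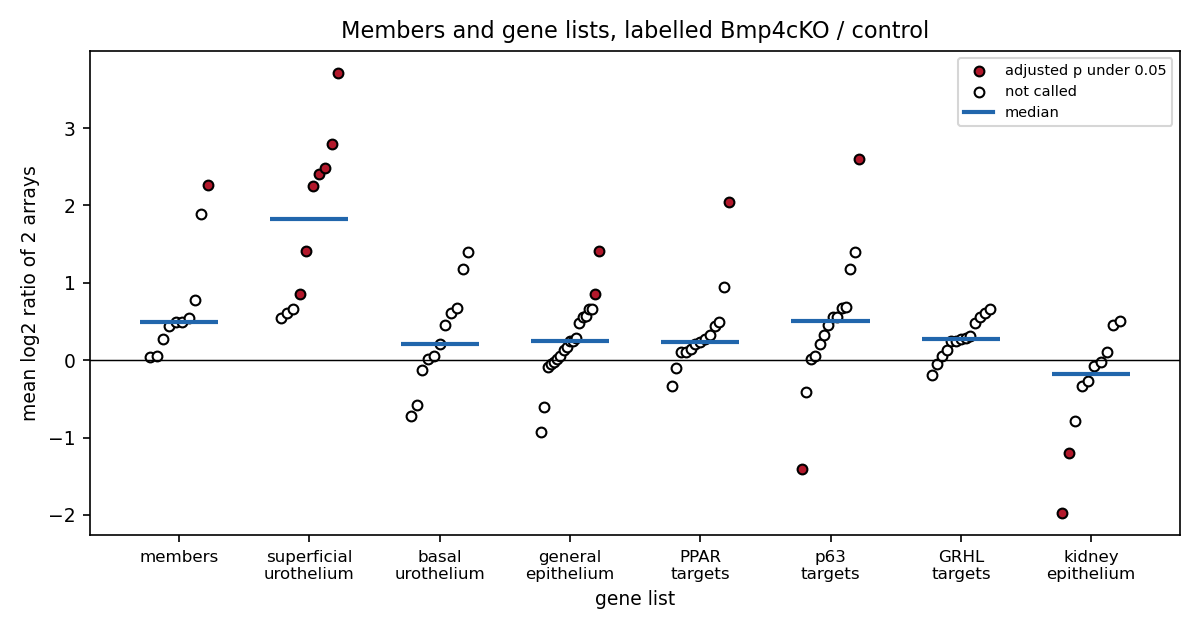
Mean log2 ratio over 2 arrays for each tested gene of the members and of 7 gene lists, filled where the limma adjusted p was under 0.05, with a blue bar at each list's median. The superficial urothelial genes have a median of 1.83, against 0.49 for the members and between -0.17 and 0.51 for the other lists drawn.

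Of 19 general epithelial genes 2 rose and 0 fell, with a median of 0.24 (0.14 on replicate 1 and 0.34 on replicate 2). Krt19 and Krt8, keratins of simple epithelia, gave 1.41 ± 0.05 and 0.86 ± 0.10 (SD, n = 2 arrays; limma adjusted p = 0.0205 and 0.0446), while Epcam gave 0.14. The summed linear level of the 19 genes was 373759 and 364200 in the RNAs labelled Bmp4cKO and 291209 and 311085 in those labelled control. Krt8, Krt18 and Krt19, which are also among the superficial genes, summed to 185288 and 156712 against 90443 and 87535. The other 16 genes summed lower in the RNAs labelled Bmp4cKO, at 188470 and 207492 against 200769 and 223552, although their median log2 ratio was 0.15. That sum leans on Cdh16, the brightest of the 16 in both control RNAs, at 15.29 and 14.53 against 15.68 and 16.01. It therefore does not show that most of these genes were lower. Of all 19 genes, 11 were higher on both arrays and 2 lower, against 28.2% and 30.6% of genes. The part of epithelial content in the members' ratios was not tested. Kidney epithelial markers had a median of -0.17, with 2 of 10 lower, Wnt9b at -1.97 ± 0.51 and Ret at -1.20 ± 0.05 (SD, n = 2 arrays; limma adjusted p = 0.0262 and 0.0245), and 0 higher.

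Other cell types in which a member is also known were read the same way, and their part in the members' ratios was not tested. Of 7 fat cell markers, 4 were tested and 0 called by limma (1 higher at an unadjusted p under 0.05), with a median of 0.10 that turned to -0.02 without the filter on dim probes. Cebpa gave 0.71 (limma adjusted p = 0.0945), and Adipoq, Cidec and Lep were not tested for want of signal. Their summed level was 18770 and 24847 in the RNAs labelled Bmp4cKO and 18648 and 18305 in those labelled control. Of 9 sympathetic neuron markers, a cell type in which Gata3 acts, 2 rose (Chga at 1.10 and Ddc at 0.99) and 1 fell, and the median was -0.11. Their summed level was 51976 and 52962 against 48498 and 53943. Of 8 T lymphoid markers, another lineage of Gata3, 5 were tested and 0 called by limma (1 higher and 2 lower at an unadjusted p under 0.05), with a median of -0.23. Id2 and Ptprc were farthest from 0, at 0.94 and -0.80, and Cd3g, Il7r and Rag1 were not tested for want of signal. The summed level was 62517 and 100199 against 57905 and 62289. This sum leans on Id2, the brightest of the 5, at 15.48 and 16.29 against 14.92 and 14.96. Of the 5 tested, 1 was higher on both arrays and 3 were lower, against 28.2% and 30.6% of genes. Of 8 macrophage markers limma called 0 (1 higher at an unadjusted p under 0.05), with a median of -0.01 and a summed level of 31256 and 25720 against 29650 and 27444. Mrc1 and C1qa were farthest from 0 there, at 0.40 and -0.25.

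Of 8 epidermal markers, where Trp63, Grhl1, Grhl3 and Ovol1 act, 6 were tested and 1 rose, Ivl, at 1.86 ± 0.52 (SD, n = 2 arrays; limma adjusted p = 0.0296). Its control level was well above background on 1 array of 2, and over the alternatives its log2 ratio ran from 1.74 to 2.97, so the size of its difference is uncertain. The list's median was 0.17 and its summed level 13693 and 13467 against 13901 and 12826. Of 8 endothelial markers limma called 0 (4 higher at an unadjusted p under 0.05), with a median of 0.29 and Sox17 and Cldn5 farthest from 0 at 0.66 and 0.62. Their summed level was 80442 and 94119 against 69218 and 66315. Of 14 genes of ureter mesenchyme and smooth muscle 6 rose, among them Myh11 at 2.48, Actg2 at 2.31 and Cnn1 at 2.14, and 1 fell, Aldh1a2 at -1.83, with a median of 1.03. Their summed level was 200497 and 218031 against 175913 and 206684.

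The genes whose pair of ratios was most like that of Pparg were found by distance in the plane of the ratios on replicates 1 and 2. With 2 arrays this measure is coarse. Nearest was Fxyd3, which encodes a small regulator of the sodium pump, at 2.11 and 2.43 and a distance of 0.071, followed by C1ql3 at 2.11 and 2.43 and a distance of 0.073. Fam183b, Mir205hg and Otop2 came next, at distances of 0.157, 0.207 and 0.226. All 5 were called higher and well above background in all 4 RNAs, with limma adjusted p between 0.0162 and 0.0193.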

How the data were processed

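The members and gene lists were chosen with earlier results of these data known. Per the file headers, the authors scanned both arrays on 1 slide in 1 scan and quantified spots with Agilent Feature Extraction 10.7.3.1 (also named in the submitters' processing notes), with probe positions on mm9. Per the file headers, spot and background columns were deposited as linear intensities, and the scanner's own ratio as log10, red over green. The score in the authors' value table is a signed fold. In size it matched the scanner's ratio to within 0.01 (log2) for 99.7% and 99.6% of 26297 probes on replicates 1 and 2, with a median of 1 in both columns, signed as red over green on the former and as green over red on the latter. The sources used here do not state the order the authors meant.

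MeanSignal and BGMedianSignal were corrected with normexp (offset 50) and normalized within arrays with limma 3.58.1 (R 4.3.3) by loess, giving controls no weight. Of 44397 spots per array, 1377 were controls, 231 and 235 were outliers and left out, and 0 were saturated; between 69.3% and 74.6% were well above background in a channel. Channel levels were scaled by Aquantile. Of 39429 probes, 31001 took their name from the RefSeq gene table for GRCm38.p6 (not used for positions) and 8428 from the array. Probes well above background in both RNAs of at least 1 group passed, and a gene's brightest passing probe stood for it. lmFit and eBayes gave p-values, adjusted by Benjamini-Hochberg over 21978 genes, of which 420 were called (1.91%), the smallest with a log2 ratio of 0.80 in size; the script was tested on simulated data. Across genes, which are not independent replicates, Pearson's r between the arrays was 0.477. Named genes were all members, Bmp4 and Tbx18, up to 4 called genes of each list or else the 2 farthest from 0, and the 5 genes nearest to a called member. Exceptions, chosen after their values were seen, were Rxra, Rxrb, Pdk4, Fabp4, Krt5, Krt14, Cdh1, Epcam, the Ensembl-named Trp63 probes, the genes with the widest probe ranges, those that share runs with Trp63 probes and the sex-linked genes. A few others taken by this rule are not reported here.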

Additional observations from a re-analysis of the deposited data

Results flagged for a closer look

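Results that moved in opposite directions on the arrays were drawn out, since dye orientation, labelled sex and the Y-linked signal of the control RNA change together between them. The log2 ratio of Trp63 at its brighter probe was below 0 on replicate 1 and above 0 on replicate 2, a change of 0.17, and that of Ehf at its brighter probe did the same with a change of 0.12. Among the gene lists, the macrophage median was 0.08 on replicate 1 and -0.09 on replicate 2, a change of -0.16. The sympathetic median was -0.32 on replicate 1 and 0.10 on replicate 2, a change of 0.43. The limma test of a difference between arrays gave an unadjusted p of 0.547 for Trp63 and 0.685 for Ehf. Its error term holds the difference between groups, and 2 arrays of opposite dyes leave no other spread. The test therefore cannot tell whether these changes exceed the error. The list medians were not tested.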

How the results depend on the processing

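Against 420 genes called, plain background subtraction gave 727, normexp with offset 0 gave 889, the authors' table of values gave 636 and a trended prior 1283, while median centring gave 0 and no normalization gave 1. Members called, 1 in the report, numbered 2 with plain subtraction, 3 with offset 0 or a trended prior, and 0 with median centring or without normalization. They numbered 2 when the probes of a gene were averaged, and 2 in both alternatives chosen after seeing the data, every passing probe on its own and Trp63 by its dimmer probe. The additions were Grhl3 (adjusted p = 0.0438, 0.0268 and 0.0082 with subtraction, offset 0 and trend), Klf5 (0.0424 and 0.0143 with offset 0 and trend) and Trp63 (0.032 averaged and 0.0155 by its dimmer probe). Without normalization 1 member met the 2-fold rule, against 2. The limma test of a difference between arrays called 0 genes (483 at an unadjusted p under 0.05) and 17530 without normalization, but its error term holds the difference between groups, so a count of 0 says nothing about how alike the arrays were. In the alternatives with both arrays no member changed sign, nor did any named gene that was followed there. Krt5, Krt14, Cdh1, Epcam, Rxra, Rxrb and Pdk4 were not followed. Without replicate 2, Trp63 at its brighter probe was at -0.05 and Ehf at -0.00068. The medians of other epithelial factors and fat cell markers changed sign, as given above. With separate channels and no replicate block, 326 genes and 1 member were called, and with the replicate block and no dye term 420 and 1, as the ratio within an array already pairs the RNAs. Leaving out either array left 1, a value with no test; 2 members were then past 2-fold in each case. The causes of these changes were not tested. Signal over background was lower in red than in green, and 1 residual degree of freedom limits every p-value.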
